A study of Mus musculus with 12 samples.

Results

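Mouse gastric organoids incubated with Fusobacterium nucleatum were compared directly with mouse gastric organoids incubated with Helicobacter pylori, 3 RNA-seq libraries a group, 6 of the 12 libraries of the series. Both groups were incubated with bacteria for 4 hours. The 3 untreated organoid libraries are given beside them as the background, and the 3 libraries with Neisseria subflava entered only the low-count filter, the scaling and the estimate of the spread between replicates. Every gene past a low-count filter was compared, 12766 of the 25759 genes in the table once 39 tested pancreatic genes had been set aside. In all groups the organoids were first cultured inside Matrigel in ordinary medium, and from their first passage they sat on top of Matrigel in a medium that held neither growth factors nor antibiotics. The strains, the bacterial dose and the number of donor mice are not given in the sources used here, so the p-values measure the spread between these libraries, which may be technical. The question the comparison addresses is how the response of the same epithelium differs between the 2 bacteria.

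Gastric organoids are hollow spheres of epithelium grown from stomach stem cells, without the immune, stromal and nerve cells of the tissue. Helicobacter pylori is a spiral bacterium that colonises the gastric mucus layer, and strains with a type IV secretion system inject bacterial products into epithelial cells. Fusobacterium nucleatum is an anaerobe of the mouth, found also in tumours of the gut, that attaches to epithelial cells through surface adhesins. Epithelial cells sense bacteria through Toll-like and NOD-like receptors, which act through NF-kB and MAP kinases to switch on chemokines that draw in neutrophils, and, soon after, the inhibitors that end the signal. Low oxygen, oxidants and xenobiotic ligands are read by HIF, NRF2 and the aryl hydrocarbon receptor, each a transcription factor with a well-known set of target genes.

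Total counts were 18192411, 18053330 and 16955155 in the Fusobacterium libraries, against 23236260, 20616026 and 19078862 in the Helicobacter libraries. Epithelial identity was clear in both groups, with Epcam between 763 and 799.9 TPM (the deposited level, corrected for transcript length and depth) with Fusobacterium and between 766 and 816 TPM with Helicobacter. Ptprc, which marks all leukocytes, was at most 0.805 TPM in the 6 libraries. Cd68, a lysosomal marker of macrophages, was between 40.2 and 43.1 TPM with Fusobacterium and between 22.9 and 24.0 TPM with Helicobacter, while of the proton pump subunits of parietal cells Atp4b was at 0 in all 6 and Atp4a between 1.69 and 2.73 TPM with Fusobacterium and between 1.64 and 1.90 TPM with Helicobacter. The first Helicobacter library carried pancreatic transcripts: Ins2 had 4, 3 and 1 counts in the Fusobacterium libraries, against 1403, 30 and 1 counts in the Helicobacter libraries, and between 1736 and 1983 counts in the untreated ones. The pancreatic genes were therefore left out of the counts of called genes below, and the totals and list counts of called genes were repeated without that library. The third Helicobacter library carries another mark (L0) in its column name than the other 5 (L1), and the meaning of the mark is not stated. Since whole organoids were sequenced, fewer cells of a type and less RNA per cell cannot be told apart.

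Nearly as many genes were higher as lower between the 2 bacteria, and the large differences were mostly on the higher side. The quasi-likelihood test of edgeR, at a Benjamini-Hochberg adjusted p of 0.05, called 8350 of 12766 genes (65.4%), 4070 higher with Fusobacterium (31.9%) and 4280 lower (33.5%). At 2-fold or more, 1190 genes were higher (9.32%) and 519 lower (4.07%). In 7202 of the 8350 called genes the 3 Fusobacterium libraries did not overlap the 3 Helicobacter libraries in TPM. That count comes from the same libraries as the calls and is no separate support, and the share without overlap over all tested genes was not counted. Against the untreated organoids, which both share, the same test called 65.2% of genes with Fusobacterium (32.9% higher and 32.3% lower) and 18.9% with Helicobacter (10.6% higher and 8.32% lower). Without the first Helicobacter library 7805 genes were called, 1173 higher and 504 lower at 2-fold or more. The split depended on the processing. In the count fit 48.7% of calls were higher, and with no scaling beyond the library total 56.5% were (4646 genes higher and 3584 lower). With limma on log2(TPM + 1), which differs also in measure, model and gene filter, 62.1% were (4904 higher and 2996 lower). Limma on log2(TPM + 0.1) moved the median difference of all genes to 0.102 from -0.014. Counts of list members below stand beside the 31.9% called higher and 33.5% called lower over all tested genes. Differences are given below as log2 fold changes of counts, Fusobacterium minus Helicobacter, ± their standard error, so that a positive value is higher with Fusobacterium; means are in TPM ± SD over 3 libraries.

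**Figure D1:**
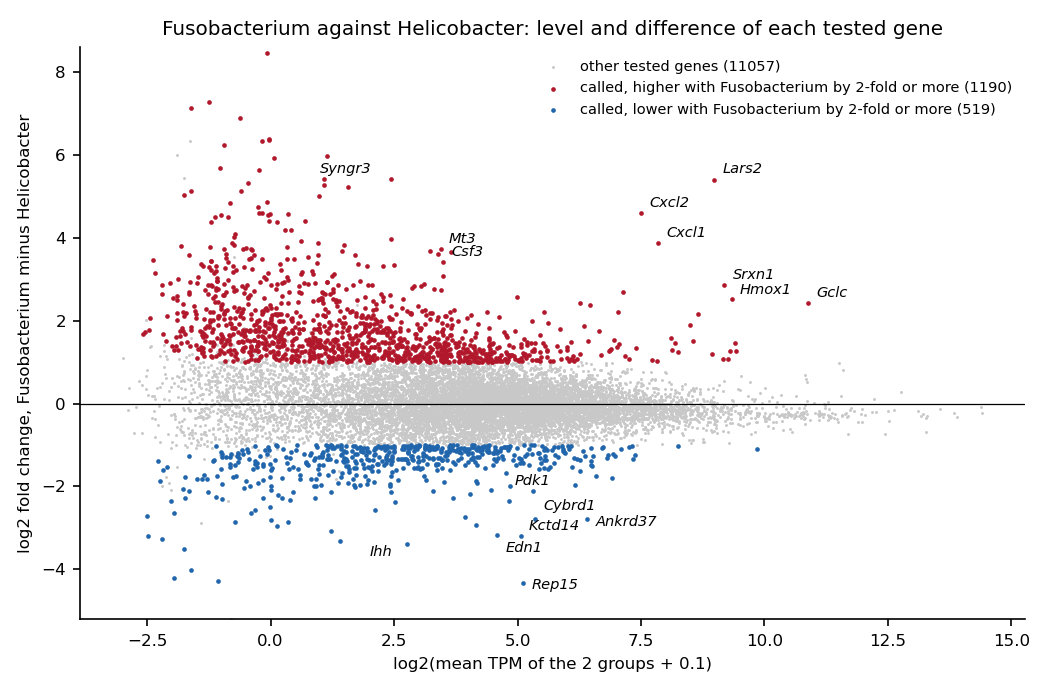
Each point is a tested gene, placed by the log2 of its mean TPM over the Fusobacterium and Helicobacter libraries plus 0.1 (x axis) and its log2 fold change, Fusobacterium minus Helicobacter (y axis). Red points are the 1190 genes called higher with Fusobacterium by 2-fold or more, most of them at low levels, and blue points the 519 called lower; Lars2, Cxcl2, Cxcl1, Srxn1, Hmox1 and Gclc stand out among abundant genes.

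The 15 largest higher genes with at least 5 TPM in the higher group began with Syngr3, which encodes a synaptic vesicle protein. Syngr3 had 9.86, 10.2 and 11.05 TPM in the Fusobacterium libraries, against 0.0972, 0.394 and 0.174 TPM in the Helicobacter libraries, a log2 fold change of 5.41 ± 0.41 (adjusted p = 7.47e-11). Its 3 Fusobacterium values all lay above its 3 Helicobacter values, as the choice of these 15 genes required. Its Helicobacter values overlapped the untreated ones. Lars2, whose product charges the mitochondrial leucine tRNA, had 1043, 1015 and 910.03 TPM with Fusobacterium, against 22.3, 21.5 and 20.4 TPM with Helicobacter (5.40 ± 0.26). The mouse Lars2 gene is known to hold sequence like ribosomal RNA, so its count can take up ribosomal RNA fragments, and the part of such reads in this value was not tested. Next came Nyap1 (5.22 ± 0.31), a neuronal adaptor of PI3 kinase, and Cxcl2 (4.59 ± 0.071), a neutrophil chemokine. Rhov (3.96 ± 0.49) is a small GTPase, Cxcl1 (3.87 ± 0.062) a second neutrophil chemokine, and Mt3 (3.73 ± 0.36) a metallothionein. Azin2 (3.60 ± 0.14) encodes an antizyme inhibitor that keeps polyamine synthesis active, and Csf3 (3.42 ± 0.18) the granulocyte colony-stimulating factor. Rassf4 (3.82 ± 0.26), Sgtb (3.68 ± 0.18), Fam131c (3.66 ± 0.29), Mak (3.36 ± 0.25), Tmem121 (3.34 ± 0.30) and the tight junction gene Cldn9 (3.33 ± 0.36) complete the 15. Apart from Lars2, Cxcl2 and Cxcl1, every gene of the set averaged under 2 TPM with Helicobacter.

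The 15 largest lower genes began with Rep15, which encodes an effector of a Rab GTPase in receptor recycling. Rep15 had 3.89, 2.47 and 4.38 TPM in the Fusobacterium libraries, against 64.9, 64.9 and 66.3 TPM in the Helicobacter libraries, a log2 fold change of -4.32 ± 0.12 (adjusted p = 6.59e-19). It averaged 105 ± 3.10 TPM in untreated organoids, so both groups lay below the untreated level, the Fusobacterium libraries by far the most. Ihh, the Indian hedgehog ligand, had 1.23, 1.61 and 0.946 TPM with Fusobacterium, against 10.7, 13.1 and 12.8 TPM with Helicobacter (-3.38 ± 0.17). Edn1, the precursor of the vasoconstrictor endothelin 1, averaged 5.14 ± 0.501 TPM with Fusobacterium and 42.5 ± 1.21 TPM with Helicobacter (-3.18 ± 0.10). Clcf1, a cytokine of the interleukin-6 family, averaged 4.44 ± 0.736 TPM with Fusobacterium and 31.3 ± 1.78 TPM with Helicobacter (-2.94 ± 0.11). The untreated means of Ihh, Edn1 and Clcf1 were 15.6 ± 1.58, 42.9 ± 2.76 and 39.4 ± 1.88 TPM, far nearer to the Helicobacter than to the Fusobacterium level.

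Ankrd37, Cybrd1, Adm2 and Kctd14 had another shape, since they were above the untreated level with Helicobacter. Cybrd1, a ferric reductase of iron uptake, had 10.4, 10.9 and 12.4 TPM with Fusobacterium, against 68.4, 77.6 and 65.2 TPM with Helicobacter and 32.5, 31.2 and 27.6 TPM in untreated organoids. The 3 groups of Cybrd1 values did not overlap one another, with untreated organoids in the middle. Between the 2 bacteria the choice of genes required this. Against untreated organoids its log2 fold change was -1.47 ± 0.069 with Fusobacterium and 1.31 ± 0.061 with Helicobacter. Adm2, the vasoactive peptide intermedin, differed by -2.74 ± 0.20 and Kctd14 by -3.19 ± 0.094. The remaining lower genes were Ccdc149 (-2.57 ± 0.16), the troponin gene Tnni2 (-2.35 ± 0.13), Epc2 (-2.29 ± 0.10), Klhdc7a (-2.17 ± 0.071), the helix-loop-helix factor Tfap4 (-2.13 ± 0.17), the retinaldehyde reductase Dhrs3 (-2.12 ± 0.07) and the histone H4 methyltransferase Kmt5b (-2.10 ± 0.071).

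**Figure D2:**
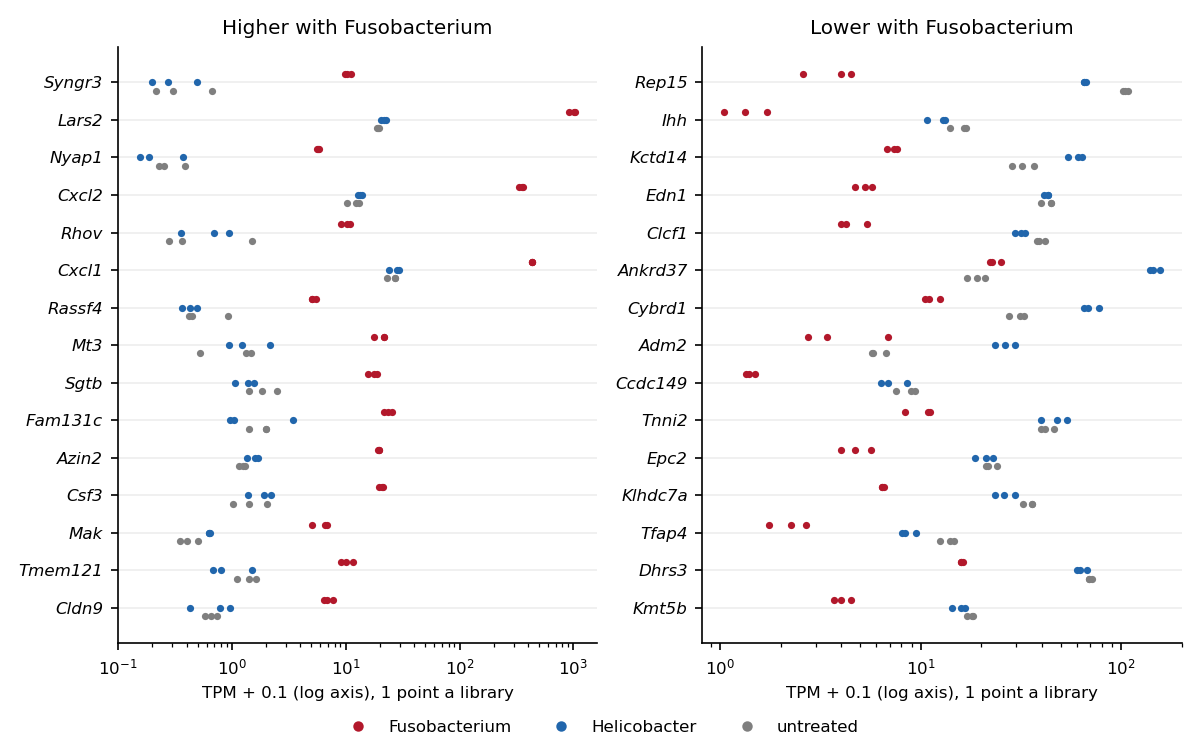
TPM + 0.1 of each library on a log axis for the 15 genes highest with Fusobacterium (left) and the 15 lowest (right); rows run down from the largest log2 fold change, red is Fusobacterium, blue Helicobacter and grey untreated. Red and blue points do not overlap in any gene, which the choice of genes required, and for Ankrd37, Cybrd1, Adm2 and Kctd14 the blue points also lie above the grey.

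Chemokines had the highest median of the pathway lists. Of 13 tested members 9 were called higher with Fusobacterium and 2 lower, with a median log2 fold change of 1.39, against -0.014 over all genes. Cxcl2 and Cxcl1, ligands of the neutrophil receptor CXCR2, led. Cxcl2 had 359, 333 and 355 TPM in the Fusobacterium libraries, against 13.7, 12.7 and 13.3 TPM in the Helicobacter libraries and 13.1, 10.1 and 12.2 TPM in untreated ones (4.59 ± 0.071, adjusted p = 1.54e-23). Cxcl1 had 430.1, 435 and 437 TPM with Fusobacterium, against 27.96, 29.3 and 24.0 TPM with Helicobacter and 27.1, 26.8 and 23.2 TPM in untreated organoids (3.87 ± 0.062). For both genes every Fusobacterium library was far above every Helicobacter library, and their choice among the 15 largest differences required no overlap. The Helicobacter values of both overlapped the untreated ones. Cxcl3 (77.2 and 15.2 TPM on average with Fusobacterium and Helicobacter, 2.22 ± 0.10) and Cxcl5 (4063 and 2128 TPM, 0.80 ± 0.055) are ligands of CXCR2 too, Cxcl5 being by far the most abundant chemokine in both. Ccl20, which draws in dendritic cells and Th17 cells through CCR6, averaged 132 ± 0.846 TPM with Fusobacterium and 22.4 ± 2.70 TPM with Helicobacter (2.42 ± 0.082). Cxcl10 (2.77 ± 0.40), a T cell chemokine, Ccl2 (1.74 ± 0.32), a monocyte chemokine, and Cx3cl1 (1.39 ± 0.052) were also higher. Cxcl17, a mucosal chemokine, was among the lower members at -0.63 ± 0.062. Cxcl5, Ccl2, Cx3cl1 and Cxcl17 were chosen after their values were seen.

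The promoters of Cxcl1, Cxcl2 and Nfkbie, an NF-kB inhibitor gene described below, are shown because each holds the letters of the NF-kB site close to the start. They are the 250 bases before the RefSeq start site on GRCm38.p6, on the gene's strand, with matches to the NF-kB consensus on either strand in capitals; on Cxcl1 and Cxcl2 the matches of both strands overlap. Cxcl1 lies at chr5:90890995-90891244 (plus strand), Cxcl2 at chr5:90903649-90903898 (plus strand) and Nfkbie at chr17:45555450-45555699 (plus strand).
Cxcl1: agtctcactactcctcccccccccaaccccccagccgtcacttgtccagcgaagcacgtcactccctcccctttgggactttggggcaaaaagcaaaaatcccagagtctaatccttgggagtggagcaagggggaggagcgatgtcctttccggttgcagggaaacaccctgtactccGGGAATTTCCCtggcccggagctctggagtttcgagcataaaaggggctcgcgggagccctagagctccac
Cxcl2: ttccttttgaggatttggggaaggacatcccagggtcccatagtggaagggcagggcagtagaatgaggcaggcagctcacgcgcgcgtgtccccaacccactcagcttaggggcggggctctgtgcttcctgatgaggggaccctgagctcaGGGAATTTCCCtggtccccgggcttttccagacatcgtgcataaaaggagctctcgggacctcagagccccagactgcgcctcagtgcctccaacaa
Nfkbie: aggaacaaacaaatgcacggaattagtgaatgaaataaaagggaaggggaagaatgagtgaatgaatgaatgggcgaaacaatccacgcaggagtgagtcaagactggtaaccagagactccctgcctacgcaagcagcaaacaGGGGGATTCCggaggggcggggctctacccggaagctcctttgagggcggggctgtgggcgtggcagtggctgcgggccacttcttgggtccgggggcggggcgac
The match spans bases -71 to -61 from the start in Cxcl1, -97 to -87 in Cxcl2 and -106 to -97 in Nfkbie. Of the 12805 tested genes, pancreatic ones included, 9956 had a RefSeq promoter, and 8.8% of these held such a match within 250 bases. The match was present in 5 of 8 promoters of tested chemokine genes and in 9 of 22 promoters of NF-kB subunit and inhibitor genes. Among genes higher by 2-fold or more the share was 10.3%. A match is a description of the letters only.

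Among cytokines the picture was divided, with 6 of 15 tested members called higher and 4 lower. Csf3 had 21.1, 19.6 and 20.8 TPM with Fusobacterium, against 2.10, 1.80 and 1.29 TPM with Helicobacter (3.42 ± 0.18). Il1a, an alarm cytokine held in epithelial cells until they are damaged, averaged 421 ± 12.9 TPM with Fusobacterium and 128 ± 10.3 TPM with Helicobacter (1.59 ± 0.052). Tnf (1.26 ± 0.088) and Il17c (2.29 ± 0.41), an epithelial member of the interleukin-17 family, were higher too. Lif (-1.23 ± 0.058) and Clcf1 (-2.94 ± 0.11), which both signal through the receptor subunit gp130, were lower, while Lifr, the receptor of Lif, was higher (1.55 ± 0.084). Il18, a cytokine activated by inflammasomes, was lower at -0.38 ± 0.078. Lif and Il18 were chosen after their values were seen.

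Most genes of the NF-kB lists were higher with Fusobacterium. In the list of subunits and inhibitors 16 of 27 tested members were called higher and 4 lower (median 0.34), and in the list of other NF-kB targets 15 of 23 were higher and 4 lower (median 0.44). Nfkbie had 11.2, 13.4 and 13.5 TPM with Fusobacterium, against 3.31, 3.56 and 3.10 TPM with Helicobacter and 3.55, 3.53 and 2.65 TPM in untreated organoids (1.80 ± 0.15). Nfkbia, the inhibitor that pulls NF-kB out of the nucleus, had 246, 235 and 258 TPM with Fusobacterium, against 87.7, 90.5 and 88.8 TPM with Helicobacter (1.34 ± 0.058). Neither gene overlapped between the groups. Nfkbiz (1.16 ± 0.041), a nuclear cofactor, Map3k8 (1.89 ± 0.23), a kinase upstream of ERK, and Map3k14 (0.96 ± 0.11), the kinase of the alternative pathway, were also higher. Of the subunits, Rel was higher (0.94 ± 0.067) and Rela lower (-0.52 ± 0.058), while Nfkb1 differed by -0.019 ± 0.053 and did not pass the test (adjusted p = 0.765). Among the targets, Tnfaip2 averaged 575 ± 8.74 TPM with Fusobacterium and 141 ± 7.83 TPM with Helicobacter (1.90 ± 0.039), and Icam1, the leukocyte adhesion molecule, 99.02 ± 5.26 TPM with Fusobacterium and 40.9 ± 1.16 TPM with Helicobacter (1.14 ± 0.06). Ptgs2, the inducible prostaglandin synthase COX-2, averaged 701 ± 2.35 TPM with Fusobacterium and 277 ± 12.7 TPM with Helicobacter (1.21 ± 0.04). Nos2, the inducible nitric oxide synthase, was low in all libraries, with 2.92, 3.17 and 2.78 TPM with Fusobacterium, against 0.334, 0.180 and 0.159 TPM with Helicobacter (3.54 ± 0.27). The cyclin gene Ccnd1 (-0.95 ± 0.039) and Bcl2l1 (-0.91 ± 0.048), which protects from apoptosis, were lower members of that list. Rel, Rela, Nfkb1 and Ccnd1 were chosen after their values were seen.

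The list of pattern recognition receptors, which is not limited to sensors of bacteria, split almost evenly. Of 24 tested members 9 were called higher and 10 lower, and the median was -0.073. Tlr2, the lipoprotein receptor (3.21 and 1.20 TPM with Fusobacterium and Helicobacter, 1.30 ± 0.23), and Nod2, a peptidoglycan sensor (9.71 and 3.91 TPM, 1.18 ± 0.10), were higher. Cd14, the co-receptor for lipopolysaccharide, had 59.95, 59.1 and 54.8 TPM with Fusobacterium, against 177, 184 and 191 TPM with Helicobacter and 186, 176 and 181 TPM in untreated organoids (-1.80 ± 0.055). Its Helicobacter and untreated values overlapped, and its Fusobacterium values lay below both. Tlr3 (-1.17 ± 0.063), Tlr4 (-0.60 ± 0.092) and the adaptor Myd88 (-0.75 ± 0.076) were lower, while Irak3, an inhibitor of Toll-like receptor signalling, was higher (1.93 ± 0.27). With no scaling beyond the library total more members of the list were called higher than lower. Tlr4 and Myd88 were chosen after their values were seen.

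Ligands of the EGF receptor and the genes that restrain MAP kinases were mostly higher. Of 7 tested ligands 4 were called higher and 1 lower. Areg, which encodes amphiregulin, had 1014, 984 and 988 TPM with Fusobacterium, against 387, 364 and 390.5 TPM with Helicobacter (1.25 ± 0.049). Ereg (1.30 ± 0.044), Tgfa (0.55 ± 0.062) and Hbegf (0.36 ± 0.05) followed, and Btc was lower (-0.39 ± 0.059). Of the MAP kinase phosphatases, Sprouty and Spred genes, 15 of 20 were higher and 3 lower (median 0.46), among them Dusp5, an ERK phosphatase (129.5 and 41.3 TPM, 1.52 ± 0.054), Dusp1 (205 and 83.8 TPM, 1.16 ± 0.05), Spry4 (1.94 ± 0.18) and Spred3 (1.58 ± 0.13). In the immediate-early list 13 of 22 were higher and 5 lower, with Ier3 (860.01 and 371 TPM, 1.08 ± 0.045) and the nuclear receptor Nr4a3 (2.39 and 0.193 TPM, 3.47 ± 0.33) highest and Junb (-0.72 ± 0.043) lowest. Fos (0.43 ± 0.049) and Egr1 (0.22 ± 0.052), the best known of these factors, differed little in size, and both were below the untreated level in the 2 groups on average. In the JAK-STAT list 15 of 25 were higher and 6 lower, including Socs1 (1.72 ± 0.50) and Stat3 (0.68 ± 0.049) on the higher side and Stat6 (-1.11 ± 0.054) on the lower. Fos, Egr1 and Stat3 were chosen after their values were seen.

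Genes of the aryl hydrocarbon receptor differed in both directions between the bacteria, and Cyp1a1 and Cyp1b1 were above the untreated level with both. The receptor binds planar aromatic ligands, indoles of bacterial origin included, and switches on cytochromes P450 and its own repressor. Cyp1a1 had 155, 157 and 163 TPM with Fusobacterium, against 40.1, 46.7 and 42.5 TPM with Helicobacter and 0.218, 0.192 and 0.411 TPM in untreated organoids (1.75 ± 0.054, adjusted p = 7.48e-18). Cyp1b1 had the opposite order, 260.4, 256 and 262 TPM with Fusobacterium, against 381, 406 and 372 TPM with Helicobacter and 75.9, 76.6 and 73.7 TPM in untreated organoids (-0.71 ± 0.035, adjusted p = 3.80e-14). In both genes the 3 groups were fully apart, and the order of the 2 bacteria was turned round. Tiparp, a feedback ADP-ribosyltransferase, went with Cyp1a1 (189 ± 3.06 TPM with Fusobacterium and 59.6 ± 4.46 TPM with Helicobacter, 1.53 ± 0.043), and so did Ahr itself (34.2 and 19.3 TPM, 0.70 ± 0.059). Ahrr, the receptor's repressor, was lower (8.88 ± 0.763 TPM with Fusobacterium and 11.2 ± 0.587 TPM with Helicobacter, -0.46 ± 0.092), as was Cyp2s1 (-0.95 ± 0.058). Against untreated organoids, Ahrr differed by 3.40 ± 0.13 with Fusobacterium and by 3.86 ± 0.13 with Helicobacter. In the list as a whole 5 of 14 tested members were called higher and 8 lower. Ahr and Ahrr were chosen after their values were seen.

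Most genes of the hypoxia list were lower with Fusobacterium than with Helicobacter. Of 39 tested members 10 were called higher and 24 lower, with a median of -0.48, and no alternative scaling turned this majority. Side by side, the list's median against untreated organoids was 0.58 with Fusobacterium and 0.98 with Helicobacter. Ankrd37, a small ankyrin protein induced by HIF, had 22.5, 22.03 and 25.05 TPM in the Fusobacterium libraries, against 145, 139.6 and 156 TPM in the Helicobacter libraries and 18.98, 16.99 and 20.7 TPM in untreated ones (-2.80 ± 0.10). Pdk1, a kinase that inhibits pyruvate dehydrogenase, had 11.7, 15.5 and 14.5 TPM with Fusobacterium, against 38.7, 42.6 and 39.8 TPM with Helicobacter and 13.9, 16.2 and 15.4 TPM in untreated organoids (-1.67 ± 0.076). For both genes the Helicobacter libraries stood apart, and the Fusobacterium values of Pdk1 overlapped the untreated ones. Bnip3, a mitophagy receptor, had 69.4, 84.9 and 82.6 TPM with Fusobacterium, against 171, 168 and 179 TPM with Helicobacter and 23.9, 23.4 and 21.9 TPM in untreated organoids (-1.26 ± 0.061), so that it was above untreated in both groups. Other lower members were Kdm3a, a histone demethylase (-1.57 ± 0.048), P4ha1, a collagen prolyl hydroxylase (-1.36 ± 0.05), and Egln1 (-1.20 ± 0.053) and Egln3 (-0.97 ± 0.045), the prolyl hydroxylases that mark HIF for breakdown. Bnip3, Kdm3a, P4ha1, Egln1 and Egln3 were chosen after their values were seen.

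The exceptions in the list included the HIF subunits themselves. Hif1a averaged 82.02 ± 1.06 TPM with Fusobacterium and 35.4 ± 3.0 TPM with Helicobacter (1.08 ± 0.048), and 49.3 ± 1.27 TPM in untreated organoids, between the 2 bacteria. Epas1, which encodes HIF-2 alpha, averaged 8.08 ± 0.409 TPM with Fusobacterium and 2.08 ± 0.202 TPM with Helicobacter (1.83 ± 0.13). Pfkfb4 (2.29 ± 0.17), a regulator of glycolysis, Bhlhe41 (2.28 ± 0.29), a repressor of the circadian clock, and Adm (1.26 ± 0.10), the vasodilator adrenomedullin, were higher as well. Vegfa, the angiogenic factor, differed by 0.11 ± 0.053 and Ero1l, an oxidase of the endoplasmic reticulum, by -0.055 ± 0.049, and neither passed the test (adjusted p = 0.0649 and 0.337). Both lay well above untreated organoids in each group: Vegfa by 1.75 ± 0.057 with Fusobacterium and 1.63 ± 0.057 with Helicobacter, and Ero1l by 2.07 ± 0.052 with Fusobacterium and 2.13 ± 0.052 with Helicobacter. Vegfa was called higher under 6 of the 17 alternatives, among them no scaling beyond the library total and both limma fits. Hif1a, Adm, Vegfa and Ero1l were chosen after their values were seen.

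**Figure D3:**
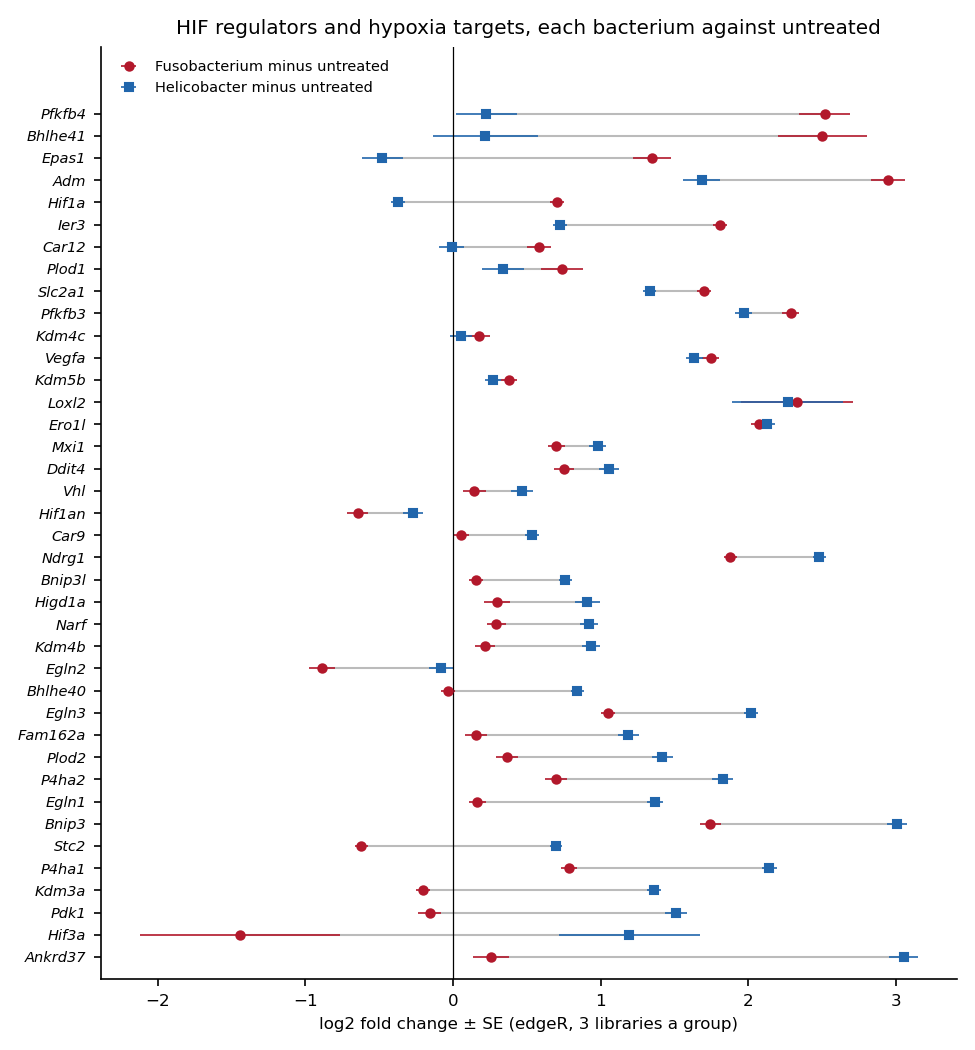
Log2 fold change ± SE of the 39 tested genes of the hypoxia list against untreated organoids, red circles for Fusobacterium and blue squares for Helicobacter, 3 libraries a group; genes run down from the highest difference between the bacteria to the lowest. From Ero1l down the blue squares lie to the right of the red circles, and Ankrd37, Pdk1 and Kdm3a lie near 0 with Fusobacterium and well to its right with Helicobacter.

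The Bnip3 promoter is shown because it holds the core letters of a hypoxia response element, ACGTG, on both strands at 1 place, bases -108 to -103 from the start, where the matches overlap. It lies at chr7:138909507-138909756 (minus strand, GRCm38.p6, RefSeq), written on the gene's strand with the match in capitals.
Bnip3: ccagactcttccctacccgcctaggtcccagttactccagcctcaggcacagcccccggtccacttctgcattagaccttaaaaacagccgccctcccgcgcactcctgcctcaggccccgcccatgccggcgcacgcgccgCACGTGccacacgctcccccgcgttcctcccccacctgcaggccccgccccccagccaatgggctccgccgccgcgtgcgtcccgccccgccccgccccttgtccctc
ACGTG on either strand was present in 16 of 31 promoters of tested genes of the hypoxia list and in 21.6% of all promoters of tested genes. It was present in 21% of promoters of genes lower by 2-fold or more.

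Glycolysis genes shared the direction of the hypoxia list, which holds some of the same genes. Of 25 tested members 15 were called lower and 6 higher (median -0.21). Pfkl, the liver form of phosphofructokinase, had 48.7, 51.6 and 50.4 TPM with Fusobacterium, against 125, 135 and 126 TPM with Helicobacter and 67.9, 68.2 and 67.2 TPM in untreated organoids (-1.49 ± 0.044). Its Fusobacterium values lay below the untreated ones and its Helicobacter values above them. Ldha, which turns pyruvate into lactate, averaged 676 ± 5.82 TPM with Fusobacterium and 1022 ± 10.2 TPM with Helicobacter (-0.73 ± 0.037), and Pgk1 1088 ± 7.54 TPM with Fusobacterium and 1554 ± 24.4 TPM with Helicobacter (-0.65 ± 0.041). Slc16a3, the lactate exporter, averaged 38.3 ± 1.41 TPM with Fusobacterium and 59.8 ± 3.40 TPM with Helicobacter (-0.78 ± 0.052), against 9.73 ± 0.482 TPM in untreated organoids. Eno2 (1.98 and 0.238 TPM, 2.93 ± 0.44), the neuronal enolase, and Pdk2 (1.15 ± 0.16) were higher. Ldha and Pgk1 were chosen after their values were seen.

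Several abundant oxidant-defence genes were among the largest differences, though the NRF2 list as a whole was divided. NRF2 (Nfe2l2), held back by KEAP1 until oxidants release it, drives glutathione and thioredoxin genes. Gclc, the catalytic subunit of the enzyme that limits glutathione synthesis, had 3179, 3184 and 3249 TPM with Fusobacterium, against 560.2, 576 and 501 TPM with Helicobacter and 925, 940.01 and 901 TPM in untreated organoids (2.42 ± 0.04, adjusted p = 2.87e-23). Srxn1, which repairs oxidised peroxiredoxins, had 1046, 1008 and 1047 TPM with Fusobacterium, against 129, 137 and 123 TPM with Helicobacter and 171, 176 and 173 TPM in untreated organoids (2.86 ± 0.041). In both genes the Helicobacter libraries lay below the untreated ones and the Fusobacterium libraries several-fold above. Osgin1 (246 and 34.7 TPM, 2.70 ± 0.069), the cystine importer Slc7a11 (199 and 67.1 TPM, 1.44 ± 0.063), the thioredoxin reductase Txnrd1 (803 and 348 TPM, 1.08 ± 0.036) and Nqo1 (718 and 447 TPM, 0.55 ± 0.038) were higher too. Nfe2l2 itself averaged 625 ± 7.53 TPM with Fusobacterium and 1229.9 ± 40.8 TPM with Helicobacter (-1.11 ± 0.036), and Keap1 was lower as well (-0.80 ± 0.052). Of 33 tested members 15 were called higher and 12 lower; without the first Helicobacter library 14 were higher and 9 lower. Txnrd1, Nqo1, Nfe2l2 and Keap1 were chosen after their values were seen.

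Heme and iron genes were mostly higher, 13 of 22 tested members, with 5 lower (median 0.29). Hmox1, heme oxygenase 1, had 1116, 1111 and 1121 TPM with Fusobacterium, against 164, 187 and 178 TPM with Helicobacter and 106, 108 and 101 TPM in untreated organoids (2.53 ± 0.046). Both groups were above untreated organoids and did not overlap each other. Biliverdin reductase B, Blvrb (1.41 ± 0.10), the iron exporter ferroportin, Slc40a1 (1.36 ± 0.081), and the ferritin heavy chain Fth1 (3977 and 1853 TPM, 0.97 ± 0.048) were higher. The iron importer Slc11a2 was higher (1.07 ± 0.055), while Cybrd1, the reductase that supplies it with ferrous iron, was the lowest of the list (-2.78 ± 0.068). Among metallothioneins and zinc transporters 9 of 21 were higher and 8 lower. Mt1 (823 and 587 TPM, 0.35 ± 0.059) and Mt2 (2279 and 1458 TPM, 0.51 ± 0.057), the abundant metallothioneins, differed far less than Mt3, which had 21.7, 21.4 and 17.5 TPM with Fusobacterium, against 2.06, 1.14 and 0.854 TPM with Helicobacter. The zinc importer Slc39a14 was higher (1.53 ± 0.086) and Slc39a10 lower (-0.89 ± 0.059). Fth1, Slc11a2, Mt1 and Mt2 were chosen after their values were seen.

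Stress genes downstream of ATF4 did not share a direction. In the integrated stress response list 7 of 23 tested members were called higher and 10 lower, and both limma fits turned that balance. Gdf15, a secreted stress factor, had 158, 146 and 148 TPM with Fusobacterium, against 26.7, 28.3 and 25.1 TPM with Helicobacter (2.37 ± 0.059), without overlap. Trib3, a pseudokinase that restrains ATF4, had 12.9, 12.7 and 12.4 TPM with Fusobacterium, against 30.3, 34.9 and 32.6 TPM with Helicobacter and 4.29, 4.15 and 4.35 TPM in untreated organoids (-1.49 ± 0.074). Chac1, which breaks down glutathione, averaged 48.7 ± 2.27 TPM with Fusobacterium and 49.8 ± 2.30 TPM with Helicobacter, against 3.78 ± 1.45 TPM in untreated organoids, and the difference of -0.16 ± 0.086 between the bacteria did not pass the test (adjusted p = 0.103); it passed when only libraries with the L1 mark were used (adjusted p = 0.031). Atf4 itself was lower (-0.35 ± 0.042), as were Atf5 (-1.17 ± 0.083) and the secreted glycoprotein gene Stc2 (-1.32 ± 0.043), while Cebpb was higher (1.11 ± 0.10). Of amino acid synthesis and transport genes 5 of 24 were higher, led by the neutral amino acid carrier Slc1a4 (129 and 32.4 TPM, 1.86 ± 0.051), and 13 lower. Cytosolic aminoacyl-tRNA synthetase genes were called lower in 12 of 22 and higher in 2. In the unfolded protein response list 17 of 28 were lower and 4 higher. Dnajb9, a chaperone cofactor of the endoplasmic reticulum, was the lowest of these (23.1 and 63.2 TPM, -1.58 ± 0.066), Xbp1 was lower (-0.76 ± 0.046), and the stress sensor Ern1, which splices the Xbp1 transcript, was higher (1.32 ± 0.11). Chac1 and Atf4 were chosen after their values were seen.

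Genes of cell division were lower with Fusobacterium. Of 40 tested G2 and M phase genes 36 were called lower and 0 higher, with a median of -0.53; against untreated organoids the list's median was -0.56 with Fusobacterium and -0.024 with Helicobacter. Ccna2, the cyclin of S and G2 phase, had 41.3, 43.4 and 40.8 TPM with Fusobacterium, against 76.3, 81.1 and 77.4 TPM with Helicobacter and 87.1, 82.4 and 85.7 TPM in untreated organoids (-1.03 ± 0.048). Kif23, a kinesin of cytokinesis, had 75.1, 68.7 and 71.6 TPM with Fusobacterium, against 163, 154 and 150.2 TPM with Helicobacter and 144, 140.2 and 135 TPM in untreated organoids (-1.25 ± 0.046). In both genes the Fusobacterium libraries lay below all others. The mitotic kinases Aurka (-0.98 ± 0.069) and Plk1 (-0.75 ± 0.067), the cyclin Ccnb1 (-0.82 ± 0.05) and the proliferation marker Mki67 (-0.73 ± 0.12) gave the same direction. In the DNA replication list 23 of 39 were lower and 5 higher, with Tk1, thymidine kinase (-1.13 ± 0.074), and Rfc3, a clamp loader subunit (-1.04 ± 0.11), among the lower and the transcription factor E2f2 (7.50 and 2.08 TPM, 1.72 ± 0.15) among the higher. Myc, which drives growth genes, had 28.9, 29.1 and 27.2 TPM with Fusobacterium, against 65.6, 68.0 and 67.2 TPM with Helicobacter and 85.7, 84.5 and 84.5 TPM in untreated organoids (-1.37 ± 0.055), with the 3 groups apart. Mycn was lower too (-1.12 ± 0.11). Plk1, Ccnb1 and Mki67 were chosen after their values were seen.

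The Ccnb2 promoter is shown as an example of the mitotic promoter, with CCAAT boxes spaced at nearly even distances. Ccnb2, a mitotic cyclin chosen for its promoter, averaged 44.2 ± 2.21 TPM with Fusobacterium and 68.9 ± 2.75 TPM with Helicobacter (-0.77 ± 0.075). The promoter lies at chr9:70421555-70421804 (minus strand, GRCm38.p6, RefSeq), on the gene's strand, with CCAAT and the cell cycle homology region (TTTGAA or TTCGAA), searched on both strands, in capitals; none of the matches overlap.
Ccnb2: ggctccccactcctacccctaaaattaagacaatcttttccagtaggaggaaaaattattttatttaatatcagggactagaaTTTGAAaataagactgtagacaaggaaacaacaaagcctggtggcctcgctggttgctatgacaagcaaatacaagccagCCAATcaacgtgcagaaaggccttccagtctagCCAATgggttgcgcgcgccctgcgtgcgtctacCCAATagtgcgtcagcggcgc
CCAAT begins at bases -87, -54 and -21 from the start, and TTTGAA or TTCGAA at base -167. CCAAT was present in 29 of 35 promoters of tested G2 and M phase genes, against 37.1% of all promoters of tested genes. TTTGAA or TTCGAA was present in 14 of 35, against 12.1% of all.

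Genes for making ribosomes and for respiration were mostly lower, by small amounts. Cytosolic ribosomal protein genes were called lower in 44 of 44 tested members, with a median of -0.29; beside that, the medians against untreated organoids were -0.10 with Fusobacterium and 0.18 with Helicobacter. Rps12 (29.2 and 40.2 TPM, -0.60 ± 0.16, with overlap between the groups in TPM) and Rpl10 (734 and 922 TPM, -0.46 ± 0.11) differed most. Many ribosomal protein genes have processed pseudogenes that can share their reads, so single values of the family are uncertain. Ribosome biogenesis genes were called lower in 24 of 34 and higher in 4 (median -0.30), including the ribosomal RNA transcription factor Ubtf (-0.99 ± 0.051), the pseudouridine synthase Dkc1 (-0.98 ± 0.06) and nucleolin, Ncl (-0.61 ± 0.043), which was chosen after its values were seen. Respiratory chain genes encoded in the nucleus were lower in 30 of 43 and higher in 0 (median -0.19), but in only 13 with no scaling beyond the library total and 8 in the limma fits. Those encoded in mitochondria were lower in 8 of 13, for example mt-Nd3 (-0.74 ± 0.076), and mitochondrial reads made up 4.50 to 4.69% of counts with Fusobacterium and 4.96 to 5.07% with Helicobacter. Mitochondrial aminoacyl-tRNA synthetase genes other than Lars2 were lower in 13 of 16, and in 5 in the limma fits. The list medians here ran from -0.33 to -0.19. Beside them, the shift of 0.116 between the medians of the count and TPM + 0.1 scales is smaller but not negligible. Over all alternatives 39 to 44 ribosomal protein genes, 19 to 24 ribosome biogenesis genes and 7 to 9 mitochondrially encoded genes were called lower. Without the first Helicobacter library 41 ribosomal protein genes and 21 nuclear respiratory chain genes were called lower.

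**Figure D4:**
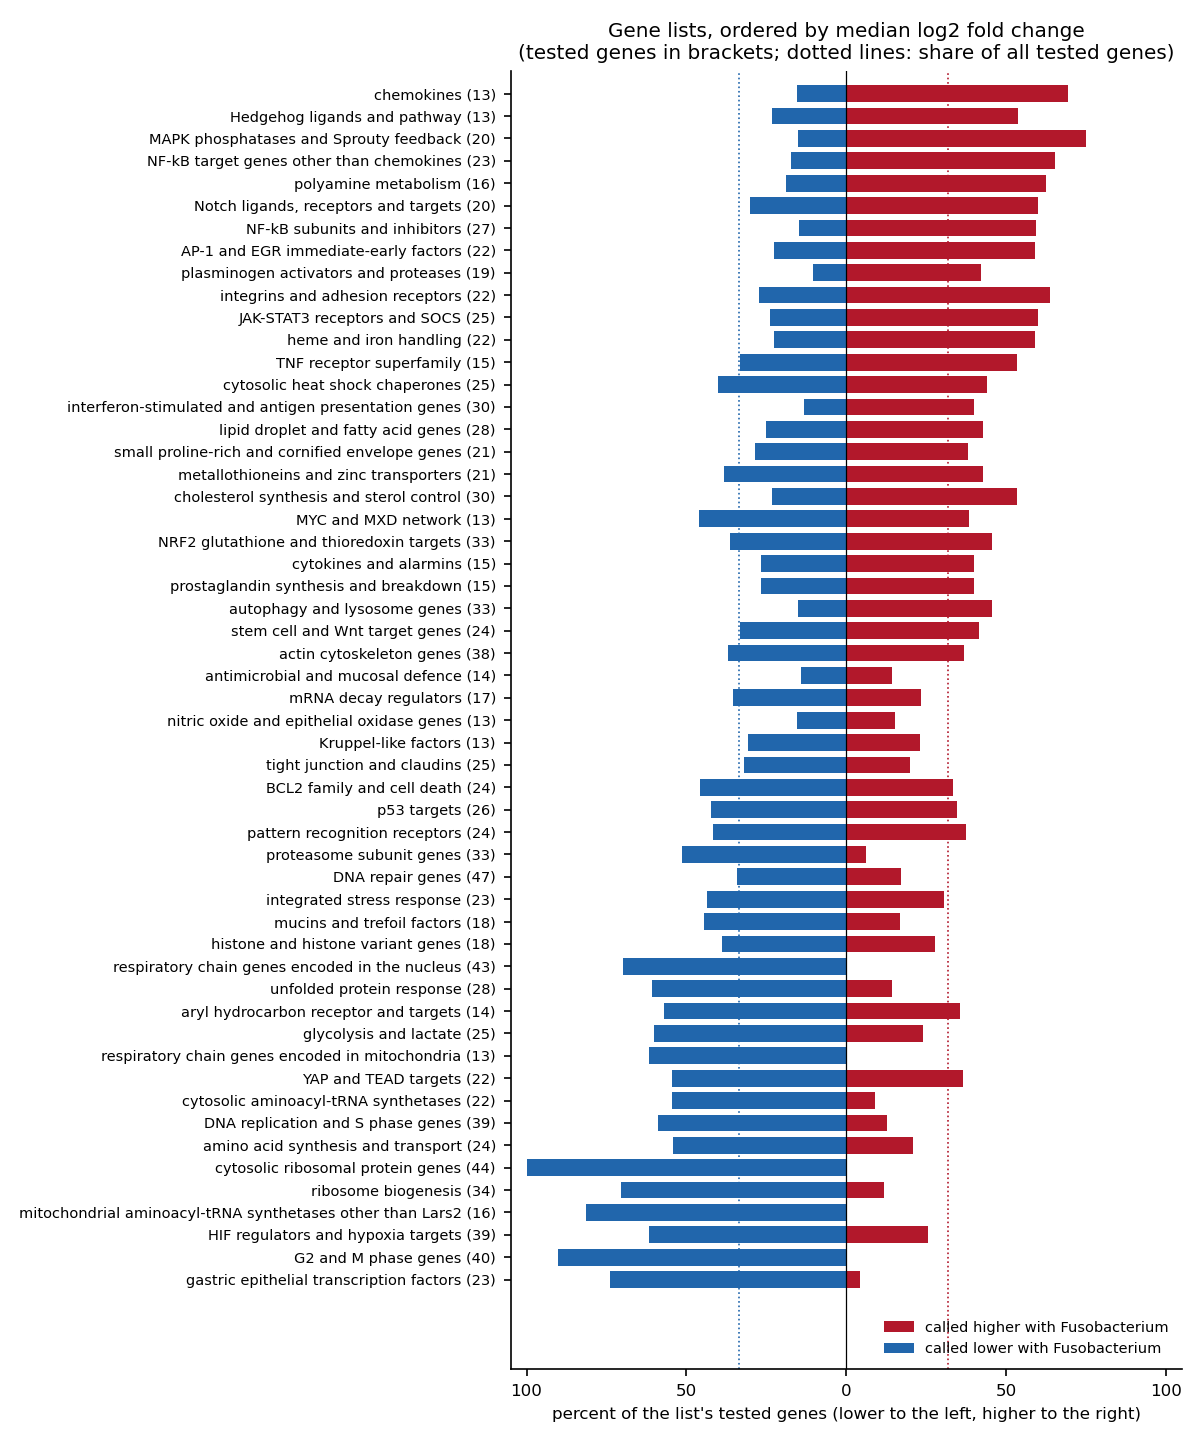
For each list with at least 10 tested genes, the percent called higher with Fusobacterium (red, to the right) and called lower (blue, to the left), ordered by median log2 fold change; dotted lines are the 31.9% and 33.5% of all tested genes. Chemokines head the lists and gastric epithelial transcription factors, G2 and M phase genes and hypoxia targets close them.

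Transcription factors of the gastric epithelium were mostly lower, with a median of -0.53: 17 of 23 tested members were called lower and 1 higher. Bhlha15 (Mist1), a factor of secretory cells such as chief cells, had 0.290, 0.845 and 0.354 TPM with Fusobacterium, against 3.44, 5.50 and 4.79 TPM with Helicobacter and 4.34, 5.62 and 4.42 TPM in untreated organoids (-3.31 ± 0.26). Sox2, a factor of stomach and foregut identity, had 7.21, 6.68 and 7.21 TPM with Fusobacterium, against 15.7, 16.9 and 17.2 TPM with Helicobacter and 26.2, 23.9 and 24.6 TPM in untreated organoids (-1.37 ± 0.11). In Bhlha15 the Helicobacter values overlapped the untreated ones, and in Sox2 the 3 groups were apart with Fusobacterium lowest. The endodermal factors Foxa1 (57.8 and 128 TPM, -1.27 ± 0.046), Gata5 (-1.26 ± 0.056) and Gata6 (-1.22 ± 0.066) were lower by similar sizes, and Sox21 by -1.26. Hnf4a (-0.42 ± 0.044) and Foxa2 (-0.42 ± 0.079) were lower by less, and Gata4 did not pass the test (0.0086 ± 0.059, adjusted p = 0.907). Klf4, a factor of surface epithelium, was the member called higher (106 and 63.04 TPM, 0.63 ± 0.049). Gata6, Gata4, Hnf4a and Foxa2 were chosen after their values were seen.

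Products of mature gastric cells differed in both directions. Of chief cell genes 2 of 3 tested members were called higher, and of parietal cell genes 1 of 3 lower. The chief cell genes summed to only 315 to 451 counts in each of the 6 libraries. A call among them was lost with the second library of either group left out. Of gastric pit cell genes 3 of 7 were called lower and 0 higher, and of mucous neck cell genes 3 of 6 lower and 1 higher. The count of lower pit cell genes fell to 1 with no scaling beyond the library total and in both limma fits. It was also 1 with only the L1 libraries and without the third library of either group. The pit cell products Gkn1 (282 ± 24.8 TPM with Fusobacterium and 222 ± 44.3 TPM with Helicobacter) and Gkn2 (658 ± 64.5 TPM with Fusobacterium and 487 ± 120.1 TPM with Helicobacter) did not pass the test (adjusted p = 0.327 and 0.189), although both limma fits called them higher. Both genes lay below the untreated means of 558 ± 119 and 1176 ± 214 TPM. Muc5ac, the surface mucin, was also not called (-0.12 ± 0.32, adjusted p = 0.758). Tff2, the trefoil peptide of neck cells, was higher (0.34 ± 0.085), and the neck cell water channel Aqp5 lower (-1.04 ± 0.065). Fut2, the fucosyltransferase that makes the H antigen bound by bacterial adhesins, had 24.6, 25.4 and 26.6 TPM with Fusobacterium, against 60.02, 71.7 and 58.9 TPM with Helicobacter and 82.9, 85.1 and 82.4 TPM in untreated organoids (-1.44 ± 0.058). Its 3 groups did not overlap. Muc4, a membrane mucin, was higher (7.77 and 2.27 TPM, 1.65 ± 0.25). Of the mucin and trefoil list 3 of 18 were called higher and 8 lower, 5 with no scaling beyond the library total. Gkn1, Gkn2 and Muc5ac were chosen after their values were seen.

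Hedgehog, Notch and Wnt genes differed in both directions. In the Hedgehog list the ligand Ihh was the lowest member and Gli1, a target that reads pathway activity, the highest at 0.661, 1.40 and 1.20 TPM with Fusobacterium, against 0.0453, 0 and 0.0270 TPM with Helicobacter, all low levels (5.13 ± 0.73). The receptor Ptch1, another target, was higher (6.51 and 3.90 TPM, 0.61 ± 0.094), and Smo, the signal transducer, lower (-1.07 ± 0.081); 7 of 13 tested members were called higher and 3 lower. Notch genes were higher in 12 of 20 and lower in 6. Nrarp, a feedback target of Notch, had 65.3, 64.5 and 61.6 TPM with Fusobacterium, against 14.9, 14.1 and 14.6 TPM with Helicobacter (2.0 ± 0.072), and the ligand Dll1 (1.66 ± 0.20) was higher, whereas the target Hes1 was lower (-0.55 ± 0.066). In the stem cell and Wnt list 10 of 24 were higher and 8 lower: the Wnt feedback gene Axin2 was higher (6.27 and 2.20 TPM, 1.37 ± 0.16), while the stem cell marker Lgr5 (5.55 and 8.86 TPM, -0.80 ± 0.11) and the Polycomb gene Bmi1 (-1.31 ± 0.066) were lower. Ptch1, Hes1 and Lgr5 were chosen after their values were seen.

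Both plasminogen activator genes were higher with Fusobacterium. Plat, the tissue plasminogen activator, had 669, 653 and 672 TPM with Fusobacterium, against 139, 142 and 129.5 TPM with Helicobacter and 115, 110.1 and 107 TPM in untreated organoids (2.15 ± 0.04). Plau, urokinase, averaged 67.7 ± 4.55 TPM with Fusobacterium and 19.6 ± 1.72 TPM with Helicobacter (1.66 ± 0.074). No library of one group reached the range of the other in either gene. Mmp14, a membrane metalloproteinase, was lower (-1.25 ± 0.044); in the list 8 of 19 were higher and 2 lower. Of integrins and adhesion receptors 14 of 22 were higher, for example Itgb5 (1.06 ± 0.076), Itgav (0.93 ± 0.044) and Itgb3 (1.35 ± 0.23), and 6 lower, for example Itgb6 (-1.05 ± 0.047). Tight junction genes were mixed, 5 of 25 higher and 8 lower, a balance that turned with no scaling beyond the library total and with limma on log2(TPM + 1). Among them Cldn4 (933 and 535 TPM, 0.67 ± 0.038) was higher, and Cldn18 (467 and 672 TPM, -0.66 ± 0.035), the stomach claudin, Cldn2 (-0.72 ± 0.038) and Cldn23 (-1.30 ± 0.10) were lower. In the YAP and TEAD list 8 of 22 were higher, including Axl (1.46 ± 0.093) and Tead1 (1.18 ± 0.083), and 12 lower, including Ajuba (-1.35 ± 0.046) and Ankrd1 (-0.90 ± 0.084).

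Death and survival genes differed in both directions. In the BCL2 list 8 of 24 tested members were called higher and 11 lower, a balance that turned in the limma fits. The pro-apoptotic genes Bcl2l11 (Bim), with 41.6, 42.5 and 42.6 TPM with Fusobacterium, against 12.5, 14.1 and 11.6 TPM with Helicobacter (1.60 ± 0.064), and Bik (15.4 and 3.10 TPM, 2.20 ± 0.25) were higher, and the pro-apoptotic Bbc3 (Puma) was lower (-1.17 ± 0.14). Ripk3 (100.04 and 48.7 TPM, 0.91 ± 0.064), a kinase of necroptosis, was higher. The TNF receptor list had 8 of 15 members higher and 5 lower, with Tnfrsf1b (1.46 ± 0.059) higher and the Fn14 gene Tnfrsf12a (-0.87 ± 0.051) lower. Of p53 targets 9 of 26 were higher and 11 lower, which turned under no scaling beyond the library total and in the limma fits; Plk3 (1.74 ± 0.10) and Gadd45a (1.20 ± 0.071) were higher and Cdkn1a, the cell cycle inhibitor p21, did not pass the test (0.07 ± 0.037, adjusted p = 0.0989), though 5 alternatives called it higher. Of heat shock chaperones 11 of 25 were higher, including Hspb1 (1.64 ± 0.12) and Hspa1a (1.40 ± 0.086), and 10 lower, including the abundant Hspa8 (1207 and 1785 TPM, -0.70 ± 0.038). Autophagy and lysosome genes were higher in 15 of 33 and lower in 5, and the receptor Sqstm1 (p62) averaged 908 ± 9.08 TPM with Fusobacterium and 346 ± 5.51 TPM with Helicobacter (1.26 ± 0.037). Cdkn1a was chosen after its values were seen.

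Metabolic and chromatin lists added single large differences. Polyamine genes were higher in 10 of 16 tested members and lower in 3, with Azin2 at 19.7, 19.5 and 18.97 TPM with Fusobacterium, against 1.27, 1.59 and 1.51 TPM with Helicobacter, and Arg2, the mitochondrial arginase, at 15.1, 14.5 and 14.05 TPM with Fusobacterium, against 1.81, 2.09 and 1.67 TPM with Helicobacter (2.83 ± 0.22). Cholesterol genes were higher in 16 of 30 and lower in 7; the sterol exporter Abcg1 was higher (1.69 ± 0.16) and the sterol-sensing receptor Nr1h3, low in both groups (0.388 and 1.42 TPM), lower (-1.99 ± 0.44). Lipid genes were higher in 12 of 28 and lower in 7, and Pparg, a regulator of lipid storage, was lower (52.5 and 95.9 TPM, -1.0 ± 0.051). The linker histone H1f0 averaged 1019.8 ± 36.6 TPM with Fusobacterium and 336 ± 1.04 TPM with Helicobacter (1.47 ± 0.045), and 5 of 18 histone genes were higher and 7 lower. Interferon-stimulated and antigen presentation genes were called higher in 12 of 30 and lower in 4. Usp18 (3.40 and 0.547 TPM, 2.50 ± 0.38) and the checkpoint ligand Cd274 (1.65 and 0.339 TPM, 2.16 ± 0.45), both at low levels, were among the higher. DNA repair genes were lower in 16 of 47 and higher in 8, a balance that turned in the limma fits, and Neil3, a DNA glycosylase (-1.27 ± 0.18), was among the lower. Over all tested genes 33.5% were called lower and 31.9% higher, and the share of DNA repair genes called lower was near the first of these.

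**Figure D5:**
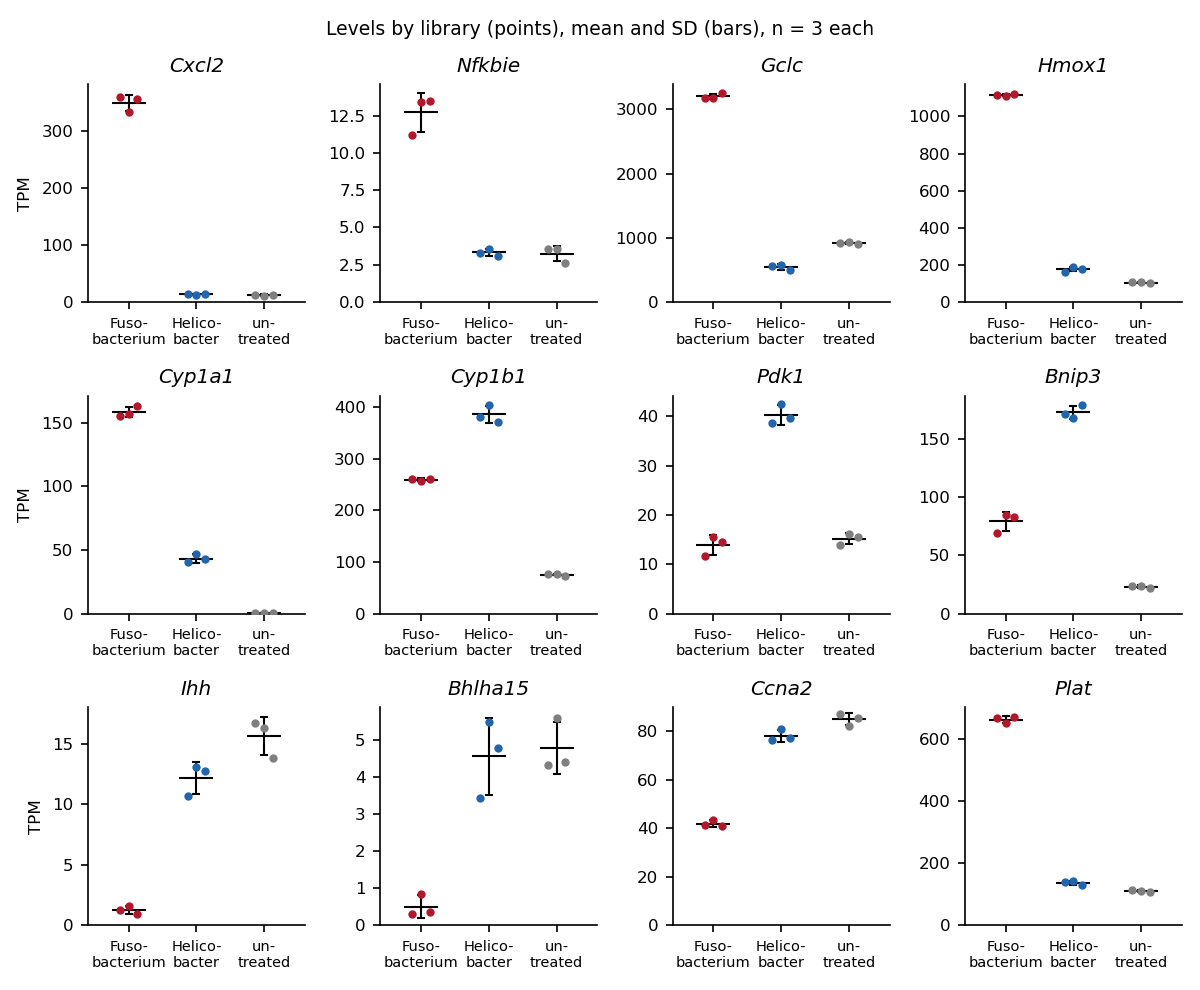
TPM (linear axes from 0) in each Fusobacterium, Helicobacter and untreated library (points) with mean and SD (bars, n = 3 each) for 12 genes. Cxcl2, Nfkbie, Gclc, Hmox1 and Plat are highest with Fusobacterium, Pdk1 and Bnip3 highest with Helicobacter, Ihh, Bhlha15 and Ccna2 lowest with Fusobacterium, and Cyp1a1 and Cyp1b1 have opposite orders.

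Genes that differed by 2-fold or more in either direction were at lower levels than the tested genes as a whole. Among the 1190 genes higher by 2-fold or more the median level was 4.12 TPM with Fusobacterium and 1.18 TPM with Helicobacter. The 519 genes lower by 2-fold or more had medians of 3.79 TPM with Fusobacterium and 8.55 TPM with Helicobacter. Of 9883 genes with at least 5 TPM in the higher group, 550 were higher and 325 lower by 2-fold or more. Of 14 tested members of the neuron list of 22 genes 9 were called higher and 0 lower, with a median of 0.95. The other members did not pass the low-count filter. A gene nearly silent with Helicobacter can pass that filter through its Fusobacterium libraries alone and can then hardly be called lower. The direction of these calls is therefore partly set by the filter. Nefm, a neurofilament gene (1.24 and 0.0921 TPM, 3.51 ± 0.49), Rab3a, a GTPase of secretory vesicles (19.4 and 5.57 TPM, 1.66 ± 0.18), and Snap25, a fusion protein of synaptic vesicles (3.72 and 1.54 TPM, 1.15 ± 0.28), were examples. The summed level of the 22 genes of the neuron list was between 54.0 and 60.2 TPM with Fusobacterium and between 23.4 and 26.5 TPM with Helicobacter, and no gene of the list was at 0 in all 3 libraries of either group. The part of other cell types in these values was not tested. Detected genes numbered 15104 to 15148 per Fusobacterium library and 14721 to 14802 per Helicobacter library, although the Fusobacterium libraries were the shallower.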

How the data were processed

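RNA of mouse gastric organoids was sequenced, 3 libraries a group. The authors deposited 1 table of 25759 genes with a count, a TPM, an RPKM and a CPM for each library. Per the file headers, the counts are total counts of paired reads per gene, as deposited and not normalized. The TPM values are the authors' own, scaled for length and depth, per the file headers. The genome build was GRCm38, per the submitters' processing notes; aligner, annotation release and the strand used in counting are not given in the sources used here. The 24 RPKM and CPM columns were not used.

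Counts were analysed in R 4.3.3 with edgeR 4.0.16: default low-count filter, TMM scaling, a robust quasi-likelihood fit of all 12 libraries with a coefficient for each group and no block, and Benjamini-Hochberg adjustment over the 12805 tested genes at 0.05. The 39 tested pancreatic genes stayed in the fit and left the counts. The coefficient of biological variation common to all genes was 5.71%. The fit was also run on simulated counts in which few genes differed and every gene had the same variation between replicates. In the data 65.4% of genes were called, so that run does not check the calls made here. Alternatives used other scalings, filters, DESeq2 1.42.0, limma 3.58.1 on log2(TPM + 1) and log2(TPM + 0.1), the 6 compared libraries, the L1 libraries, a replicate block, and each library left out in turn.

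The comparison, its lists and its genes were chosen with earlier results of these data known. Named genes were the 15 largest differences in each direction (at least 5 TPM in the higher group, called also without the first Helicobacter library, no overlap in TPM, not pancreatic or predicted) and up to 5 called members of each list with the largest differences and at least 1 TPM in the higher group; where a list had no called member, the 3 most abundant. Others are said to be chosen after their values were seen. Of the genes named, 39 overlap another annotated gene: Ankrd37, Arg2, Atf5, Bhlhe41, Ccl2, Ccna2, Ccnd1, Cebpb, Cxcl10, Dkc1, Gli1, Hif1a, Hspa1a, Il17c, Il18, Irak3, Junb, Lgr5, Mki67, Muc4, Myd88, Nefm, Nfkb1, Plk1, Plk3, Ptch1, Rab3a, Rassf4, Slc11a2, Slc39a10, Slc7a11, Spred3, Sqstm1, Stat3, Stat6, Tead1, Tgfa, Tk1 and Txnrd1. Reads in an overlap with a gene on the opposite strand cannot be told apart without the strand. Hif1a, Il17c, Myd88, Nfkb1, Ptch1, Slc39a10, Slc7a11 and Txnrd1 overlap a gene on their own strand, where the strand would not tell the reads apart. A few results are not reported here.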

Additional observations from a re-analysis of the deposited data

How the results depend on the processing

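The count of called genes was 8350 and lay between 7754 and 8321 with 1 of the 6 libraries left out, and between 7836 and 8360 under the other alternatives. At 2-fold or more, limma on log2(TPM + 1) called 759 genes higher and 190 lower, and limma on log2(TPM + 0.1) called 1152 higher and 312 lower, against 1190 and 519 in the count fit; the cause was not tested. The replicate block gave 8360 calls, 4084 higher and 4276 lower. The replicate numbers were treated as labels in the main fit. The deviations of same-numbered libraries from their group means correlated by 0.060, 0.139 and -0.112 over 9284 genes, and not every library correlated best with its own number. With 3 libraries a group the deviations depend on one another, so these values cannot decide whether the libraries were paired.

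Of the 221 tested genes named, 214 kept their side of the threshold under every alternative and 0 reversed; Cdkn1a, Chac1, Epcam, Gkn1, Gkn2, Ins2 and Vegfa crossed it. Some list counts changed: lower mRNA decay regulators numbered 6 in the count fit and 2 with limma, and lower proteasome genes 17 in the count fit, 10 with no scaling beyond the library total, 9 with limma and 10 to 11 without Helicobacter replicate 1 or 3 or Fusobacterium replicate 2 or 3; the cause was not tested. Without Helicobacter replicate 1 the higher and lower counts of 50 of 55 lists moved by at most 2 genes. Depth limits genes below about 1 TPM, whose folds rest on few reads.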
